A study of Mus musculus with 20 samples.

Results

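The NanogN70 reprogramming path was compared between its beginning, days 0 and 1, and its middle, days 5 and 7, by the presence of ATAC-seq peaks. Overlapping peaks of the 20 libraries of the series were joined, which gave 335858 regions. Open here means that a library has a peak within the region, and closed that it has none. Gained regions were closed on both early days and open on both later days, and lost regions were the reverse. Of the 151071 regions open in at least 1 of these 4 libraries, 13102 were gained (8.67%), 15657 were lost (10.4%) and 28304 were open in all 4. These counts state what the rule selected and carry no test. A minimum peak score of 100 gave 8225 gained and 8120 lost regions, so which set was larger depended on the threshold.

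Chromatin accessibility was measured in mouse embryonic fibroblasts (MEFs) that carried an Oct4-GFP reporter and had been infected with pMXs retroviruses. The NanogN70 path received NanogN70 together with Oct4, and the companion Nanog path received native Nanog together with Oct4. NanogN70, named NanogBiD in the study, is NANOG with the BRG1-interacting part of SS18 joined to its N-terminus, so every library of the path carried both factors, day 0 included. Each day was 1 library: Day0, Day1, Day5 and Day7 of NanogN70+Oct4 form the comparison, and Day3, Day8, Day10 and Day12, the 8 Nanog libraries, 1 MEF library and 3 ESC (embryonic stem cell) libraries did not enter the rule. Day 0 followed the infections, the cells were in reprogramming medium from then on, and 2iL medium was used from day 7, so factor, time and culture cannot be told apart within the path. The ESC libraries were grouped by their titles, which name ESCs where another label field names MEFs.

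ATAC-seq marks DNA that the Tn5 transposase can reach, which is mostly promoters and enhancers freed of nucleosomes. In fibroblasts many enhancers are held open by AP-1 (FOS and JUN dimers) and by TEAD factors, the DNA-binding partners of YAP, while in pluripotent cells OCT4 and SOX2 bind enhancers side by side and NANOG binds many of the same sites. SS18 is a subunit of the BAF complex, a remodeler driven by the ATPase BRG1 that moves and evicts nucleosomes, and closing of somatic chromatin and opening of pluripotency chromatin are the opposing sides of reprogramming that such experiments follow.

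The sequences below were chosen because they hold a motif match and show where it lies. Most gained and lost regions hold none of these motifs at the summit. Each is the summit base of a region with 50 bases on either side, read from the plus strand of GRCm38 (mm10), and capitals mark a match to a SOX (CATTGT), OCT (ATGCAAAT), OCT-SOX (TTNGCAT directly followed by NACAA), AP-1 (TGANTCA) or TEAD (GGAATG) consensus within 25 bp of the summit on either strand. Gained regions open only in ESCs were ranked by mean ESC score and lost regions open only in MEFs by MEF score. The first 4 of each ranking with a SOX or OCT match (gained) or an AP-1 or TEAD match (lost) are printed, the search having been extended past the 8 best ranked regions after their values were seen. A match outside the 25 bp is left in lower case. The Smurf1 region, though lost by the rule, had peaks of 5, 12, 7 and 8 reads on days 3, 8, 10 and 12.
Gained, promoter region near Gm10203, chr6:149131285-149131385: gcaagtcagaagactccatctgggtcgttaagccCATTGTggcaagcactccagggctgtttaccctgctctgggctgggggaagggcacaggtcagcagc
Gained, intergenic, 48.2 kb from Rybp, chr6:100335609-100335709: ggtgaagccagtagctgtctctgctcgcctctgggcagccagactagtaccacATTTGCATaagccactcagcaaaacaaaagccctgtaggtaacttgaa
Gained, Chn2 intron, chr6:54096944-54097044: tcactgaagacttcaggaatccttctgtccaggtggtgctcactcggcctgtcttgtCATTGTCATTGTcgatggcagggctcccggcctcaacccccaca
Gained, Ebf1 intron, chr11:44746879-44746979: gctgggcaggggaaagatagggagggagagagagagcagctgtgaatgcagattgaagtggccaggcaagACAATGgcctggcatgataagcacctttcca
Lost, intergenic, 36.2 kb from Adam12, chr7:134261226-134261326: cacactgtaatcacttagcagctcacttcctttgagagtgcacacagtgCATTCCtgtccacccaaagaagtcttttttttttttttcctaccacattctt
Lost, Trpm6 intron, chr19:18890378-18890478: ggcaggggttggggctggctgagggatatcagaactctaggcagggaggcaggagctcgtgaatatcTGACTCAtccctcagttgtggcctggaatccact
Lost, Gm29683 intron, chr7:70267135-70267235: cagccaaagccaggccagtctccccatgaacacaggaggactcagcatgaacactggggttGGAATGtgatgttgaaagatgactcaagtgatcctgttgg
Lost, within Smurf1, chr5:144898602-144898702: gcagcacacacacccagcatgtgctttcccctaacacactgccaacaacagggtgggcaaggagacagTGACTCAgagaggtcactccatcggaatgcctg

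The composite OCT-SOX consensus, the arrangement in which OCT4 and SOX2 bind together, was found in 13 gained and 3 lost regions. The 2 gained regions with it that had the highest score are an ESC-only one in an intron of Ptprn2 and one in an intron of Gpam that was open in neither MEFs nor ESCs. The third line is the promoter of Sall4, which had the highest score of the gained pluripotency promoters and held none of the motifs within 25 bp.
Gained, Ptprn2 intron, chr12:117235289-117235389: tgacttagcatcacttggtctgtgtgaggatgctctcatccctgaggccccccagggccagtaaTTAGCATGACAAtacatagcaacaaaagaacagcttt
Gained, Gpam intron, chr19:55121029-55121129: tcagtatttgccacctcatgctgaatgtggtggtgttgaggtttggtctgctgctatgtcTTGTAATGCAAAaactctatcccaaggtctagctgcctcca
Gained, Sall4 promoter, chr2:168767240-168767340: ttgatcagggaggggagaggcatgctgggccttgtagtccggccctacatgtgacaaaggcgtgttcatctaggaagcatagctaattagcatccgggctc

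The 4 libraries differed in how readily they gave peaks, and this touches every count below. Day0 had 107038 peaks, Day1 had 77662, Day5 had 83245 and Day7 had 80881. Depth is unknown, but the median pileup (reads stacked at the summit) over the 14217 regions open in all 20 libraries was 24, 16, 23 and 38 on these days. Promoters of the matrix and fibroblast genes checked as markers had a peak in 33, 29, 28 and 28 of 36 cases on days 0, 1, 5 and 7 against 35 in MEFs and 26, 28 and 23 in the ESC libraries. Promoters of T lymphocyte genes had a peak in 4, 3, 3 and 3 of 15 cases against 15 of 15 in Day3, which is why Day3 was left out.

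Gained regions were drawn from the ESC pattern more often than open regions in general, but most of them were not. ESC-only regions, which had a peak in 2 or 3 ESC libraries but not in MEFs, made up 2633 of the 13102 gained regions, or 20.1% (95% exact binomial interval 19.4 to 20.8%, which like all intervals here covers counting error only), against 7.07% of the regions open in at least 1 of the 4 libraries. Another 13.6% were shared by MEFs and all ESC libraries and 5.44% were MEF-only, both below the 19.2% and 20.3% of the regions open in at least 1 of the 4. A smaller part of the gained set was thus fibroblast or common chromatin without a peak on days 0 and 1. The largest share, 6786 regions or 51.8%, was open in neither MEFs nor ESCs, close to the 47.7% of all open regions.

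Lost regions were largely fibroblast chromatin or chromatin seen in neither reference state. MEF-only regions, with a peak in MEFs but in none of the ESC libraries, were 6479 of 15657 lost regions, or 41.4% (40.6 to 42.2%), against 20.3% of the regions open in at least 1 of the 4. Regions open in neither MEFs nor ESCs were 53.0%, close to their 47.7% of all open regions. ESC-only regions were 141, or 0.901%.

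Gain and loss were also counted within each state. Of the ESC-only regions open in at least 1 of the 4 libraries, 24.7% were gained and 1.32% lost. Of the MEF-only regions, 2.32% were gained and 21.1% lost. Shared regions were rarely lost, with 6.13% gained and 1.14% lost, and they made up 65.7% of the regions open in all 4 libraries. Regions open in neither reference changed in both directions, 9.41% gained and 11.5% lost. Of all lost regions 30.9% had no peak in any of the 8 Nanog libraries, against 37.6% of all regions open in at least 1 of the 4.

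**Figure D1:**
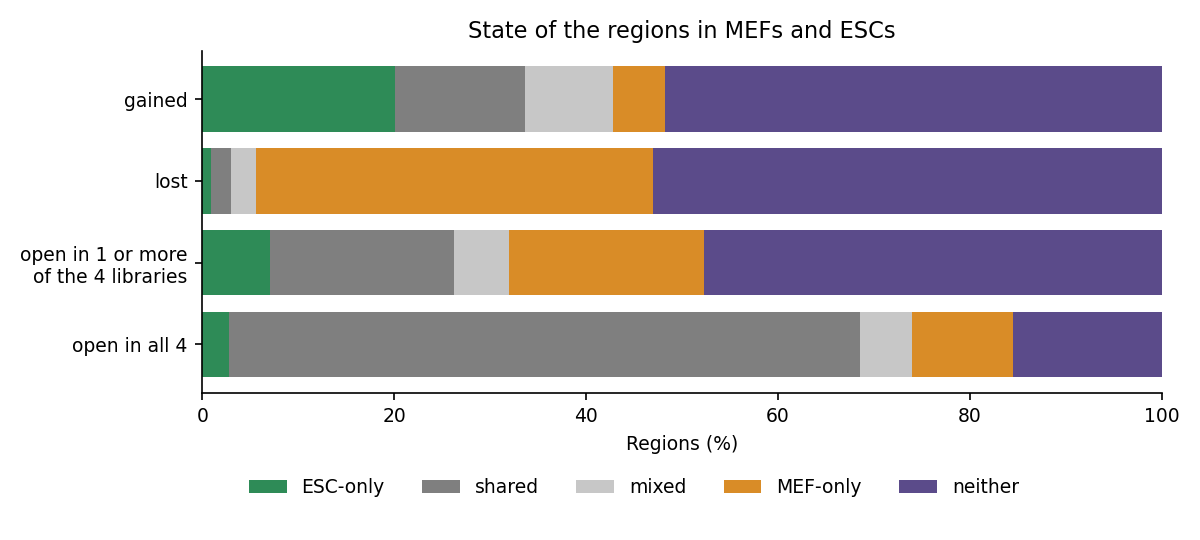
Horizontal bars give the percent of regions in each state for gained regions, lost regions, regions open in at least 1 of the 4 libraries and regions open in all 4. ESC-only regions are 20.1% of gained and 0.901% of lost regions, MEF-only regions are 5.44% and 41.4%, and regions open in neither are 51.8% and 53.0%.

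The same shift was followed over all regions of each state, whether or not they were gained or lost. Of all 55446 ESC-only regions, 4.42% were open on Day0, 3.56% on Day1, 10.1% on Day5 and 15.4% on Day7. Of all 74608 MEF-only regions, 36.5%, 16.7%, 9.45% and 9.19% were open on these days. Neither pair of days overlapped the other for either state. The mean difference, later minus early, was 8.75 percentage points for ESC-only and -17.3 for MEF-only regions. These values come from the libraries that define gain and loss and include the gained and lost regions, so they are a description, and 2 libraries a side could not reach 0.05 in an exact permutation test (smallest p 0.333). Shared regions were open in 77.7%, 66.3%, 79.4% and 85.3%, a difference of 10.3 points, so the later libraries also had more peaks at common sites. Whether this reflects how readily a library gives peaks was not tested. Its part in the ESC-only and MEF-only differences was not tested either. The MEF-only difference had the opposite sign to the shared one. It was -7.43 points without Day0 and -27.2 without Day1.

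Base composition differed between the sets. The median GC content around the summit (50 bases on either side) was 51.5% in gained, 42.6% in lost and 47.5% in all regions open in at least 1 of the 4 libraries. It was 47.5% among all open regions of both Day0 and Day1, 50.5% in Day5 and 53.5% in Day7, and the share of open regions that were lost went from 17.8% where GC was under 40% to 0.795% where it was 60% or more. The gained share over all open regions was 3.42% where GC was under 40%, 13.9% between 55 and 60% and 9.15% at 60% or more. Among regions open in neither reference it was 3.51%, 21.7% and 21.4%. Within the ESC-only class the gained share was nearly level across these GC classes, between 22.5% and 28.0%. Among MEF-only regions the lost share ranged from 27.2% in the lowest to 7.78% in the highest class. The part of GC content in the gain and loss was not tested.

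The MEF and ESC states apart, the other libraries of the NanogN70 path show what became of the regions. Gained regions were open in 35.6% of cases on Day3, 45.5% on Day8, 26.5% on Day10 and 34.6% on Day12, where all regions open in at least 1 of the 4 had 33.9%, 29.4%, 21.7% and 24.7%. The gained regions lay above these shares on each of the 4 days. However, the rule asks for a peak in both Day5 and Day7. The compared set also includes lost regions and regions with a peak in only 1 of the 4 libraries. A gap in this direction is thus partly built in and carries no test. Gained regions were open on all of days 8, 10 and 12 in 18.2%, near the 17.4% of all open regions, and closed on all 3 days in 43.3%, against 65.1%. The part shared by MEFs and ESCs was open most often, with 65.1%, 60.02% and 70.1% on days 8, 10 and 12 and 42.5% on all 3. The ESC-only part had 60.05%, 40.8% and 53.7% and 30.4% on all 3, whereas the part open in neither reference had 33.2%, 10.7% and 16.1% and was closed on all 3 in 60.7%. Lost regions mostly had no later peak. They were open in 15.0% on Day3, 4.97% on Day8, 0.984% on Day10 and 1.49% on Day12, and 93.8% had no peak on days 8, 10 and 12.

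In the Nanog path, whose libraries did not choose the regions, gained regions were open more often and lost regions less often on the later days. Gained regions were open in 4.56%, 8.52% and 19.8% of cases on days 0, 1 and 3 and in 39.4%, 49.4%, 37.7%, 21.2% and 25.04% on days 5, 7, 8, 10 and 12. All regions open in at least 1 of the 4 NanogN70 libraries were open in 29.2 to 33.6% on the first 3 days and in 23.04 to 38.0% on the later ones. For gained regions every later library lay above every early one, and the means were 11.0% and 34.5%, a difference of 23.6 points (exact permutation test, two-sided, 3 against 5 libraries, p = 0.0357, the smallest this design allows, Benjamini-Hochberg adjusted over 2 tests 0.0714). Lost regions were open in 51.8%, 47.4% and 24.7% and then in 26.0%, 20.8%, 22.6%, 11.8% and 5.09%. Here Day3 lay below Day5, and the means of 41.3% and 17.3% differed by -24.0 points (same exact test, p = 0.0714, adjusted 0.0714). Neither adjusted value passed 0.05, and since days are successive samples of 1 time course these values describe the courses and not repeats of the experiment. At a minimum peak score of 100, or after subtracting each library's open share of shared regions, both differences had an adjusted p of 0.0357 (exact permutation test), and the subtraction brought the gained difference to 14.8 points.

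**Figure D2:**
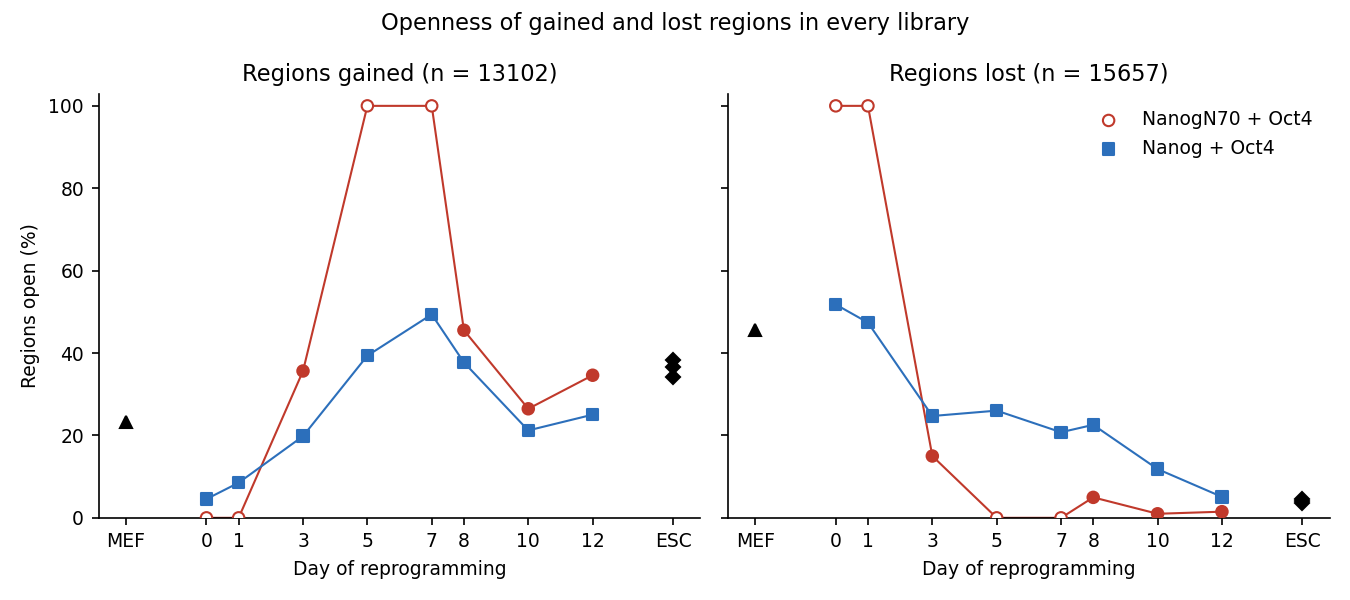
Percent of the 13102 gained regions (left) and 15657 lost regions (right) open in each library, by day, for NanogN70 + Oct4 (circles) and Nanog + Oct4 (squares), with the MEF library as a triangle and the 3 ESC libraries as diamonds. Open circles are the 4 libraries that define the regions and are 0 or 100% by the rule. Gained regions peak at 49.4% on day 7 of the Nanog path, and lost regions stand at 1.49% on day 12 of the NanogN70 path.

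When the rule itself was applied to the Nanog path it found 15444 gained regions (12.3% of the 125681 open in at least 1 of its 4 libraries) and 6317 lost ones (5.03%). Of the NanogN70 gained regions 3278 were also gained there, which is 25.02% of the NanogN70 list and 21.2% of the Nanog list, where 7.45% of all regions open in the NanogN70 libraries were gained in the Nanog path. Of the lost regions 2558 were lost in both, 16.3% of the NanogN70 and 40.5% of the Nanog list, against 3.64% of all regions open in the NanogN70 libraries. Opposite calls were few, 11 regions gained here and lost there and 190 lost here and gained there. Of the lost regions 14.4% had a peak on both day 5 and day 7 of the Nanog path, against 30.4% of all regions open in at least 1 of the 4 NanogN70 libraries.

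Most regions of both kinds lay away from gene starts. Within 2 kb of an annotated start were 13.5% of gained and 8.16% of lost regions, against 17.7% of the regions open in at least 1 of the 4 and 47.4% of those open in all 4. Gained regions lay in introns in 45.7%, between genes in 37.0% and in exons in 3.73%, and lost regions in 54.3%, 35.1% and 2.402%. The median distance to the nearest start was 15.3 kb for gained and 18.3 kb for lost regions. Gained regions of the shared state were at promoters in 29.6%, ESC-only ones in 16.0% and those open in neither in 7.71%. Median widths were 379 and 374 bp, against 340 bp for regions open in at least 1 of the 4 and 813 bp for those open in all 4.

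Their peaks were near the typical height of each library. The median pileup of gained regions was 6 reads on Day5 and 9 on Day7, just under the medians of 7 and 10 over all open regions of these libraries. Lost regions had 10 reads on Day0 and 6 on Day1, where all open regions had 9 and 7. The lower score of the 2 libraries with a peak started at 50, the lowest score in the files, and was under 60 in 22.3% of gained and 22.6% of lost regions. Just outside the rule stood 26589 regions with no early peak and a peak in 1 later library only, with a median score of 68.2, and 44415 with a peak in 1 early library only and none later, with a median score of 74.5, where the median lower score of members was 79.3 for gained and 79.7 for lost regions.

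Among motifs, the AP-1 consensus had the widest gap in percentage points between lost and gained regions of the 13 searched. It lay within 25 bp of the summit in 16.3% of lost and 1.31% of gained regions, against 6.57% of all regions open in at least 1 of the 4 libraries. In lost regions of the MEF-only state the share was 24.2%, and in those open in neither reference 10.2%. Of all open regions with an AP-1 match 25.7% were lost and 1.72% gained. The difference was seen within states too, since among MEF-only regions 31.1% of the 5051 with a match were lost against 19.1% of the 25648 without, and among shared regions 8.46% against 0.989%. For regions over 2 kb from a start the shares were 16.3% and 1.38%.

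Other somatic motifs differed less. RUNX (TGTGGTT) was found in 2.68% of lost, 0.985% of gained and 1.65% of open regions, and TEAD in 4.54%, 2.84% and 4.40%. The lost share of TEAD regions in the MEF-only state, 16.1%, was below the 21.5% without the motif. CTCF (CCANNAG directly followed by NNGGC), which organises chromatin loops and binds in most cell types, was found in 0.473% of lost, 1.56% of gained and 1.54% of open regions. Among shared regions, 8.56% of those with a CTCF match were gained and 6.03% of those without, whereas among ESC-only regions the shares were 13.4% and 25.2%.

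The single SOX and KLF consensus matches were about as frequent in gained as in open regions. The OCT match was somewhat more frequent in gained regions, and the rare composite OCT-SOX motif more so. SOX matches were in 3.24% of gained (95% interval 2.95 to 3.56%), 3.62% of lost and 3.13% of open regions, and in 4.20% of the gained regions open on days 8, 10 and 12 against 3.14% of those closed on all 3 days. For OCT these shares were 0.882% and 1.39%. OCT matches were in 152 of 13100 gained regions (95% interval 0.984 to 1.36%), 0.869% of lost and 0.878% of open regions, and in 1.52% of gained ESC-only regions. Of the 40 open regions with the composite OCT-SOX motif 13, or 32.5% (18.6 to 49.1%), were gained, against 8.67% of all open regions, and 3 were lost. RFX (GTTGCNANG) was in 1.08% of gained, 0.511% of lost and 0.795% of open regions, and ETS (CCGGAAG) in 0.420%, 0.128% and 0.663%. KLF (GGGNGTGG) was in 2.13% of gained, 1.22% of lost and 1.97% of open regions. Among ESC-only regions, 24.3% of those with a KLF match were gained and 24.7% of those without. A match is only a run of letters in this window and gives no occupancy.

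**Figure D3:**
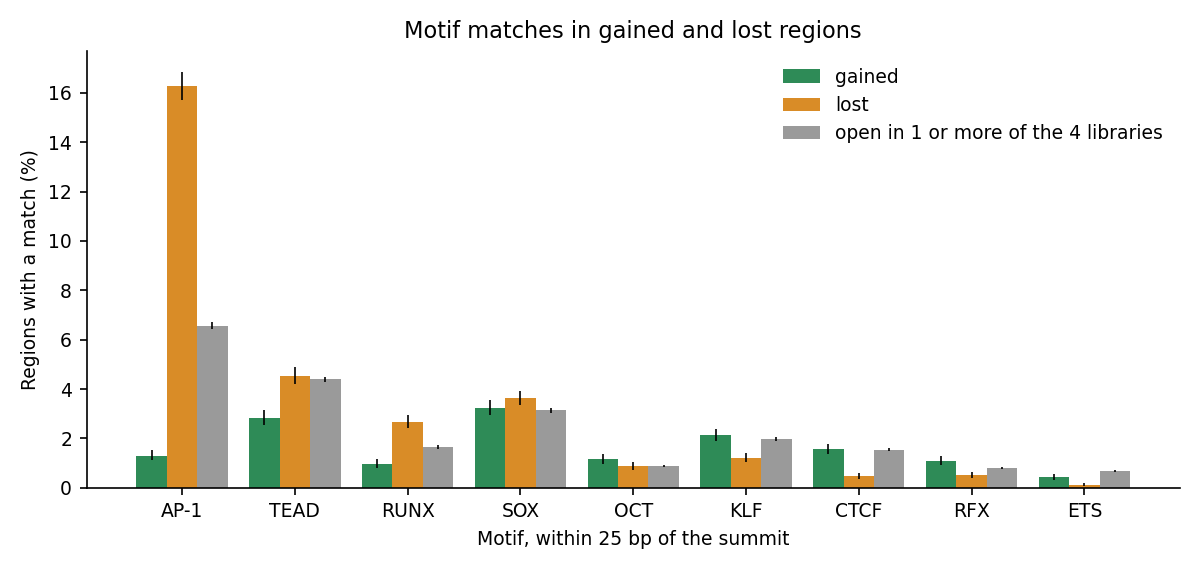
Percent of gained, lost and all regions open in at least 1 of the 4 libraries with each consensus within 25 bp of the summit, with 95% exact binomial intervals as error bars. AP-1 stands at 16.3% in lost, 1.31% in gained and 6.57% in open regions, while the SOX bars lie between 3.13% and 3.62%.

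At genes, regions were assigned to the gene body with 10 kb on either side. Of 21911 protein-coding genes, 26.9% had a gained and 28.4% a lost region, and within 2 kb of a start 5.03% had a gained and 3.39% a lost one. Over all these genes 8.15% of the 101571 open regions were gained and 10.0% lost. Genes with more open regions have more chances of either, so each list below is read by the share of its open regions beside these values. The lists were chosen with results of these data known, and carry no test.

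Of the 180 open regions at 41 pluripotency genes, 11.7% were gained (95% interval 7.37 to 17.3%, which holds the value of all genes) and 5.56% lost (2.70 to 9.98%, just below it). A gained region was found at 13 genes (31.7%), against 26.9% of all protein-coding genes. At the promoter of Sall4, a zinc finger factor of the early embryo (chr2:168766288-168767451, ESC-only), pileup was 0 on days 0 and 1, 16 on Day5 and 38 on Day7. It had 7 reads on Day3 and 23, 26 and 44 on days 8, 10 and 12, and the 3 ESC libraries had 40, 45 and 26, so the peak seen on days 5 and 7 was present in every later library. In the Nanog path the same promoter had 4 reads on day 1, none on days 0 and 3, and 6, 11, 10, 13 and 21 on days 5 to 12. From day 5 on each was below its NanogN70 counterpart, but pileups are not scaled to depth. The median pileup at regions open in all 20 libraries was 28, 38, 32, 23 and 24 on these days of the Nanog path. In the NanogN70 path it was 23, 38, 26, 28 and 41.

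A broad region of 2993 bp that lies 7.39 kb from the start of Pou5f1, the gene of OCT4, within an intron of the neighbouring Tcf19, was closed on days 0 and 1 and had pileups of 44 and 73 on days 5 and 7 and of 74, 38 and 63 on days 8, 10 and 12. It was open in MEFs too, with 115 reads, and in ESCs with 176 to 210. Tdgf1, a NODAL co-receptor, gained an ESC-only region 1.37 kb from its start with 16 and 17 reads, although Day3 had 79 reads there. Esrrb, an orphan receptor that sustains naive pluripotency, gained 3 intronic regions of 18 open ones, of which 1 was ESC-only with pileups of 4, 12, 15, 9 and 29 on days 5, 7, 8, 10 and 12.

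Dppa3, a gene of germ cells and the naive state, gained 3 regions, with 7 and 7 reads on days 5 and 7 at the ESC-only one 1.76 kb from its start, which holds an OCT match. Dppa5a and Tfcp2l1, the latter a factor of the naive network, each gained an ESC-only region, with 8 and 17 and with 11 and 12 reads on days 5 and 7. Zscan10 gained a shared exonic region with 5 and 12 reads. Sox2 had 3 open regions and neither gained nor lost any.

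The 10 lost regions at pluripotency genes were of another kind. They included none of the ESC-only state, and 7 of the 10 were open in neither reference, such as one at the Klf2 promoter with 20 and 9 reads on days 0 and 1. The largest was at Nanog (chr6:122712568-122712765), with 112 and 82 reads on days 0 and 1 of this path, 152 and 102 on the same days of the Nanog path and none in any other library. It lies on a Nanog exon, a sequence that the vectors also carry, and reads from vector DNA cannot be told apart from the locus in these files.

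Extracellular matrix and fibroblast genes had few gained regions, 3.96% of 328 open ones (2.13 to 6.68%, below the value of all genes). Lost were 12.5% (9.12 to 16.6%, which holds the value of all genes). A lost region was found at 19 of 36 genes (52.8%), against 28.4% of all protein-coding genes, a count that grows with the number of open regions. Col6a3, a collagen VI chain, lost an intronic MEF-only region (chr1:90834122-90835241) that had 33 reads on both days 0 and 1 and 49 in MEFs. It had 10 reads on Day3, none on days 5 and 7 and 6 on Day8, while the Nanog path held 20 reads on its day 7. Col12a1 lost 4 of 24 open regions, all MEF-only, and Timp3, an inhibitor of matrix proteases, lost 4 of 16 with 10 to 21 reads on Day0. Cd44, the hyaluronan receptor, lost 5 of 16, of which 4 were open in neither reference.

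At the start of Col3a1, the collagen III chain, an MEF-only promoter region with TEAD and OCT matches had 12 and 8 reads on days 0 and 1 and no peak later in the path. Lost MEF-only regions also lay 1.99 kb from the start of Col1a2 (17 and 10 reads) and 2.46 kb from that of Col5a1 (15 and 10). Within 2 kb of a start of these genes 3 of the 53 open regions were lost, 5.66%, against 3.57% at all such promoters. Gained regions at these genes included an ESC-only one 0.793 kb from the start of Sparc, with 10 and 18 reads on days 5 and 7.

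Mesenchymal transcription factors and TGF-beta pathway genes were near genes at large in loss. Among mesenchymal transcription factors 12.9% of 303 open regions were lost (95% interval 9.32 to 17.2%) and 8.25% gained, and at a minimum score of 100 their lost share was 7.78%, under the 9.20% of all genes. Runx2, an osteoblast factor, lost 7 of 33 open regions and gained 1, and its relative Runx1 lost 4 of 32 and gained 5, the lost ones including an MEF-only promoter region with 10 and 9 reads on days 0 and 1 and 30 on Day3. Prrx1, a limb mesenchyme factor, lost 3 of 12, 2 of them MEF-only. At TGF-beta pathway genes 11.9% of 243 were lost (8.14 to 16.7%) and 6.17% gained. Acvr1, a type I receptor, lost 7 of 28 open regions and gained 2, and Ltbp1, which tethers latent TGF-beta, lost 6 of 33 and gained 3.

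TEAD and YAP pathway genes were close to genes at large, with 10.3% of 203 open regions lost and 8.37% gained. Ankrd1, a YAP target, lost its MEF-only promoter region with 17 and 7 reads, and Ccn2, another target, lost an MEF-only region with AP-1 and TEAD matches while gaining 2 ESC-only regions next to it. Yap1 itself lost 4 of 19 open regions and gained 1, and Amotl1 lost 2 of 23. At AP-1 family genes 7.2% of 125 were lost and 8.0% gained.

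Epithelial genes, many of which switch on during reprogramming of fibroblasts, had 9.23% of 130 open regions gained and 6.92% lost, and at a minimum score of 100 these shares were 2.78% and 1.39%, both below those of all genes (9.15% and 9.20%). Cdh1, the E-cadherin gene, gained a shared intronic region with 5, 12, 9, 16 and 24 reads on days 5 to 12. Marveld3, a tight junction gene, gained 3 ESC-only regions, 1 of them at its start with 6 and 10 reads, and Grhl2, an epithelial factor, gained an ESC-only promoter region with 7 and 8 among 2 gained and 2 lost. Krt8, a simple epithelial keratin, gained a region 3.18 kb from its start with 10 and 14 reads. The related Cdh3 gained 2 regions and lost 3, all 3 MEF-only.

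Neural and early patterning genes had 8 gained and no lost regions of 71 open ones, 11.3% (95% interval from 4.99%, below the value of all genes) and 0. The gained regions lay at Sox1, Neurog1, Neurog2, Lhx2, Zic1, Zic5, Nkx2-2 and Pax3, 1 each. The region 5.67 kb from Sox1, a neural SOXB1 factor, had 8 and 20 reads on days 5 and 7 and 14, 15 and 21 on days 8, 10 and 12. Of the 8 regions 6 were shared by MEFs and ESCs, so most of this gain was at chromatin also open in the starting cells.

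Genes of other cell types had few open regions. At T lymphocyte genes 8 of 68 were gained (11.8%) and 3 lost, and at leukocyte genes 6 of 43 were gained (14.0%) and 1 lost, where 8.15% were gained and 10.0% lost at all genes. The gained leukocyte regions include one 0.730 kb from the start of Ptprc, the CD45 gene, with 13 and 12 reads on days 5 and 7. On Day3 that region had no peak, although all 10 leukocyte genes, Ptprc included, had a peak within 2 kb of some annotated start. At hepatocyte genes 2 of 13 (15.4%) and at erythroid genes 3 of 16 (18.8%) open regions were gained, and none and 2 were lost. All 4 gained shares lay above the 11.7% of pluripotency genes. What these few regions come from was not tested.

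**Figure D4:**
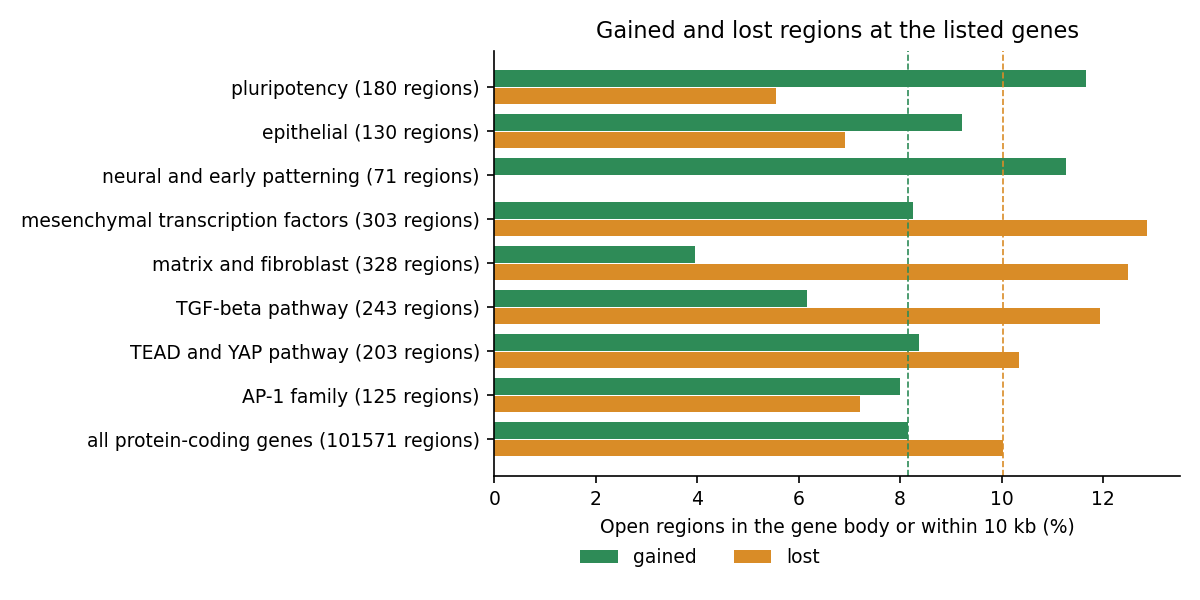
Percent of the open regions at the genes of each list that were gained or lost, with the number of open regions in brackets and dashed lines at the values for all protein-coding genes (8.15% gained, 10.0% lost). Pluripotency genes stand at 11.7% gained and 5.56% lost, and matrix and fibroblast genes at 3.96% and 12.5%.

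The strongest members by score lay at varied genes, and the 8 best gained regions away from starts all scored above the best gained promoter. The 8 gained regions with the highest score within 2 kb of a protein-coding start were near Trpm8, Lrrc38, Sall4, Klhdc8b, Supt6, Chst3, Upk3b and Tspan18. Trpm8, a cold-sensing channel, had 35 and 38 reads at its start on days 5 and 7, 13 on Day8, none on Day10 and 8 on Day12, and the region was open in neither reference. Klhdc8b had 19 and 40 reads and then 27, 17 and 24 on days 8, 10 and 12, and of the 8 Nanog libraries 1 had a peak there, with 14 reads on day 12. The Supt6 region, in the body of Sdf2, was ESC-only with 21 and 41 reads.

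Away from starts the highest score was at an intron of Dnajc11 with 32 and 38 reads on days 5 and 7, followed by an intergenic region 364 kb from Btg1 with 15 and 19 and by an intron of Lrfn2, a synaptic adhesion gene, with 20 and 41. Of the other 5, those nearest to Cdh5 and Castor2 were intergenic, and 1 in an intron of Wwox had 19 and 52 reads. The Lrfn2 region was ESC-only, with ESC pileups of 6, 7 and 8, below those of days 5 and 7. A region in Gm9866, 277 kb from Sox11, had 26 and 51 reads, then 24, 39 and 52 on days 8, 10 and 12, and 17 to 21 in ESCs. The Dnajc11, Lrfn2, Wwox and Gm9866 regions were open in the Nanog path too, on every day from day 3 on.

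The gained regions with the strongest ESC peaks behaved otherwise. An ESC-only region in an intron of Shroom3, which shapes epithelial cells by apical constriction (chr5:92924587-92925530), had 10 and 23 reads on days 5 and 7 and 14, 10 and 18 on days 8, 10 and 12 against 48 to 77 in ESCs. In the Nanog path it had no peak before day 12 and 8 reads then. Among the 8 regions of this kind, at introns of Shroom3, Aak1, Sdk1, Tbl1xr1 and Slc18b1 and nearest to Dll1, Gm10203 and Mkrn1, pileups on days 5 and 7 ran from 5 to 34 and 7 of 8 had a peak in 1 or 2 Nanog libraries, the Slc18b1 region having 5. The region nearest to Dll1, 128 kb from that gene, went on to 49 and 69 reads on days 10 and 12.

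Lost promoters with the highest score were at Ap1b1, Prpf39, Otogl, Nedd9, Fbxo34, Arl8b, Cttnbp2nl and Zfp958, of which all but Zfp958 were MEF-only. Arl8b, a lysosomal GTPase (chr6:108795077-108796282), had 26 and 18 reads on days 0 and 1 and no peak from Day3 on, and its region holds an AP-1 match. The Nanog path held 17, 17 and 16 reads there on days 3, 5 and 7 and none from day 10. Nedd9, a scaffold of focal adhesions, had 24 and 14 reads and none later. Away from starts, a region 24.8 kb from Plk2 had 31 and 24 reads on days 0 and 1 and, apart from 6 on Day8, no later peak, whereas 7 of 8 Nanog libraries were open there. One 140 kb from Hmga2, a chromatin protein of embryonic mesenchyme, had 47 and 21 reads, and also 21 on Day3. One 26.2 kb from Il7r had 21 and 16 reads and an AP-1 match.

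Lost MEF-only regions with the strongest MEF peaks, 67 to 144 reads in MEFs, had fewer reads on Day0 than in MEFs and fewer again on Day1, by 1 read only near Mtdh (24 and 23). The 8 were nearest to Klf6, Kif26b (within Smyd3), Slit3, Adam12, Mall, Mtdh, Dlc1 and Gm17555. The one near Adam12, a metalloprotease gene, had 112 reads in MEFs, 41 on Day0 and 10 on Day1, and none later in the path. In the Nanog path it had a peak on every day, with 44 and 10 reads on days 0 and 1 and 8 to 20 afterwards. For all 8 regions Day1 had 5 to 23 reads where Day0 had 17 to 41, and Day1 was also the library with the lowest pileup at common regions.

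**Figure D5:**
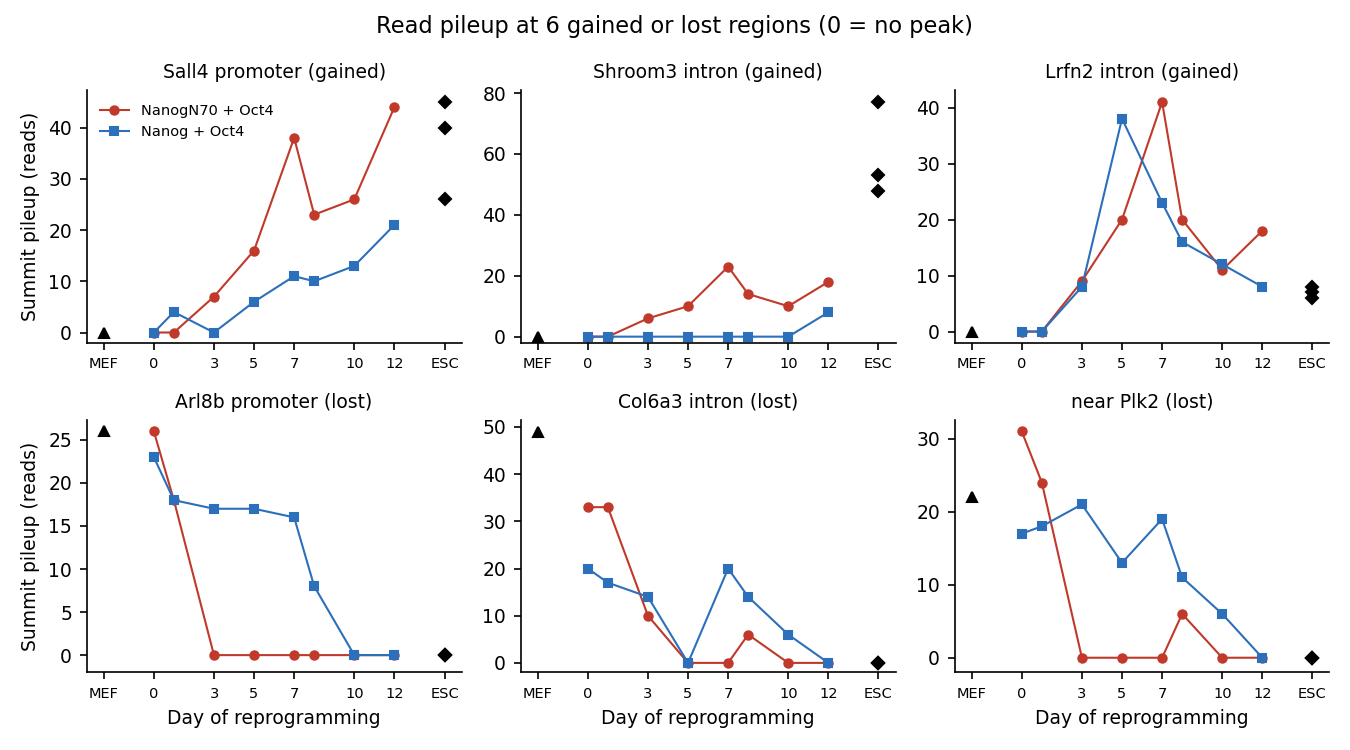
Summit pileup in reads by day at 3 gained regions (top) and 3 lost regions (bottom) for NanogN70 + Oct4 (circles) and Nanog + Oct4 (squares), with MEFs as a triangle and the 3 ESC libraries as diamonds, 0 meaning no peak. Pileups are not scaled to depth. The Sall4 promoter reaches 38 reads on day 7 of the NanogN70 path and 11 in the Nanog path, and the Arl8b promoter has no peak from day 3 on in the first and 16 reads on day 7 in the second.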

How the data were processed

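ATAC-seq peaks of 20 mouse libraries were used. Per the submitters' processing notes the authors used Trim Galore 0.6.4, Bowtie2 2.4.5, SAMtools 1.16.1 and MACS 1.4.2 on mm10, calling peaks in each library separately, and no input control is named. The authors deposited for each peak a score, the scaled negative log10 of the MACS p-value, which was 50 or more, and for each summit a signal, the pileup in reads, not scaled to depth. The number of reads per library is not known from the sources read, so an absent peak may be an open site below detection. Groups came from sample titles.

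Peaks sharing 1 bp were merged, and presence was compared as described. Place and nearest gene came from GENCODE M21 at the top-scoring summit, on 21 chromosomes, leaving out 83 regions on 14 other sequences, and bases from GRCm38, whose chromosome lengths hold all peaks. Promoter means within 2 kb of any annotated start, after the study's methods. 13 consensus motifs were searched on both strands in 51 bp at the summit, of which 10 are spelled in the results. NFI, ESRRB (CAAGGTCA) and CEBP (TTGCNNCAA) were each in under 0.5% of gained and of lost regions. Tests were two-sided exact permutation tests over libraries. Each day is 1 library, so p-values compare successive days of 1 time course and measure no spread between repeats of the experiment.

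Regions were named by rule: the 8 highest lower scores among gained and among lost regions within and beyond 2 kb of a start, the 8 strongest gained ESC-only and lost MEF-only regions, and changed regions at listed genes, of which examples are given. The members and lists were chosen with earlier results of these data known. Of 245 list entries 241 matched the annotation. Python 3.11.15, numpy 2.4.6, pandas 2.3.3 and scipy 1.17.1 were used. The selection of regions was tested on simulated data. Alternatives were a higher minimum score, equal numbers of peaks, other merging, other windows, Day3 added and each library left out.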

Additional observations from a re-analysis of the deposited data

How the results depend on the processing

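The counts depend on the threshold and on each library. A minimum score of 100 in every library gave 8225 gained and 8120 lost regions, and adding Day3 to the later libraries gave 4670 gained regions. Leaving out 1 library at a time loosens the rule by its construction and gave 16756 (without Day1) to 27999 (without Day5) gained and 17340 (without Day7) to 50322 (without Day1) lost regions. The ESC-only share of gained regions was 18.8% at score 100, 19.3% with the same number of top-scoring peaks in each library (77662), and 14.4% (without Day7) to 22.9% (without Day5) when libraries were left out. The MEF-only share of lost regions was 45.4% with equal numbers of peaks, 40.3% with Day3 added, and 28.6% (without Day0) to 41.1% (without Day1). The share of gained regions within 2 kb of a start was 17.5% at score 100, 14.54% with equal numbers, 16.0% with merging over the 4 libraries only, 14.3% with peaks cut to 250 bp on either side of the summit and 16.3% with Day3 added, and 11.4 to 15.7% without 1 library. That of lost regions was 9.21% and 9.14% under the 2 mergings and 8.05 to 8.93% without 1 library. The later minus early difference was 6.09 to 11.4 points for ESC-only, -27.2 to -7.43 for MEF-only and 4.63 to 16.0 for shared regions without 1 library, with no change of sign.

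In the Nanog path the difference was 25.5 points for gained and -21.5 for lost regions at score 100, and 14.8 and -32.9 after subtraction of shared regions, all with an adjusted exact permutation p of 0.0357. Without 1 Nanog day the differences were 19.9 to 28.0 and -32.3 to -18.8 points, with exact permutation p of 0.0571 to 0.0952 and 0.0571 to 0.190. With 50 bp on either side of the summit AP-1 was found in 30.2% of lost and 2.66% of gained regions, and without 1 library of the comparison (an alternative added after seeing the data) in 12.8 to 15.8% and 1.32 to 1.46%. Within 2 kb of a start 5.66% of open regions at matrix and fibroblast genes were lost. The later minus early differences kept their sign, but other comparisons turned. At score 100 the lost share at mesenchymal transcription factors (7.78%) and the gained share at epithelial genes (2.78%) lay below those of all genes (9.20% and 9.15%). Without this minimum both lay above. At score 100 gained regions also outnumbered lost ones, where without it they were fewer. Where a value moved, the cause was not tested beyond what the setting itself changes. Depth is unknown, which limits every call of a closed region.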

Other observations

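Single genes held many changed regions, which are named here after their values were seen and whose number grows with gene length. Over all genes 8.15% of open regions were gained and 10.0% lost. Gm20388 (50 gained of 512) and Fgfr2 (33 of 278) ranked highest by number, with 34 and 18 lost. Their annotated spans are 4435 and 2961 kb long, so these regions may lie at other genes within the span. Wwox had 30 gained regions of 97 open ones and 3 lost, Msi2, an RNA-binding protein gene, had 22 of 68 and 3 lost, and Grik4, a glutamate receptor gene, had 21 of 61 and 2 lost. Dscaml1, a neural adhesion gene, had 14 gained of 25 and none lost. On the lost side Prkg1, a cGMP-dependent kinase gene, had 25 lost of 95 and 2 gained, Gpc6, a glypican gene, had 18 of 100 and 8 gained, and Babam2 and Utrn had 16 of 49 and 14 of 61 with none gained. Over the autosomes the gained share of open regions ran from 7.07% on chromosome 19 to 10.1% on chromosome 8, and on chromosome X it was 6.15%, with 11.0% lost.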
